A study of Mus musculus with 2 samples.

Results

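The array of this study carried 16251 probes for intergenic long noncoding RNAs among its 55681 noncontrol probes. A probe was counted as one of them when its gene or systematic name began with a chromosome position, or when its description held the word lincRNA. The choice used names only and no measured value. The probes stood for 3555 regions of the mm9 mouse genome. Many regions were probed on both strands, which gave 4622 stranded regions with a median length of 10676 bases and a median of 3 probes (1 to 10). Of the 16251 probes, 8199 read the forward strand and 8052 the reverse strand, and each probe was 60 bases long and lay on the array as 1 spot. The label "intergenic" held only in part, since 193 probes overlapped a probe of a named gene and Malat1, Neat1 and Xist were among the members.

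Both samples were CD4 T cells sorted from cultures of spleen cells of female OVA-TCR-Tg mice, whose T cell receptor transgene recognises ovalbumin (OVA). The naive-only culture held 2500000 untreated spleen cells per mL with OVA at 0.1 mg/mL. The co-culture held 1250000 untreated spleen cells per mL and as many spleen cells that had met the superantigen TSST-1 (0.1 ug/mL) beforehand, called anergic in the labels, with OVA at the same dose. Cells were collected after 24 hours. Whether the sorter separated the formerly naive cells from those stimulated with TSST-1 is not given, and neither is the age of the mice. Each condition had 1 array, so no test between conditions was possible. Errors printed as ± are the scanner software's error of the 2 spots behind a difference, and contain no spread between animals or cultures.

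Long noncoding RNAs are transcripts without a long open reading frame. Some act where they are made, on the gene next to them, and others act elsewhere in the nucleus or cytoplasm. In T cells such RNAs change with activation and with helper cell lineage, and many lie close to genes of cytokines, surface receptors and transcription factors. Transcripts that run past the end of a gene, transcripts of enhancers and unspliced precursors also lie between annotated genes, and a probe there reads them as well.

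The probes below carry the findings described here. The first pair lies 3.66 and 3.67 kb from the nearest probe of Cdkn1b, the gene of the cell cycle inhibitor p27, at chr6:134879147-134879206 and chr6:134879154-134879213 on the forward strand, and gave the largest rises of all members. They were designed to different named regions, the second of which lies within the first on the same strand. Capitals mark the 53 bases that both probes hold.
A_30_P01020056: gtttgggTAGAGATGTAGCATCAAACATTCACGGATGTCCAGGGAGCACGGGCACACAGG
A_30_P01021179: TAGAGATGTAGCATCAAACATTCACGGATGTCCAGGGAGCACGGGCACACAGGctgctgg

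The second pair reads opposite strands of one stretch of chromosome 5, at chr5:35976912-35976971 (forward) and chr5:35976938-35976997 (reverse). It is shown because the strands moved in opposite directions. Capitals mark the 34 bases that the other probe holds as reverse complement.
A_30_P01024606: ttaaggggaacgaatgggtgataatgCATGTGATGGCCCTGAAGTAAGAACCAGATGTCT
A_30_P01032382: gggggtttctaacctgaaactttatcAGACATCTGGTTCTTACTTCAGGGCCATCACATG

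The third pair, at chr1:175655046-175655105 and chr1:175655065-175655124 on the reverse strand, belongs to the longest run of falling members, beside Ifi204, an interferon-inducible gene. Capitals mark the 41 bases that both probes hold.
A_30_P01017895: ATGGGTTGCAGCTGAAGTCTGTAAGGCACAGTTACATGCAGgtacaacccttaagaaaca
A_30_P01021447: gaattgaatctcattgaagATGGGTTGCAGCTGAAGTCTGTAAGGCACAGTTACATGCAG

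The Malat1 probe at chr19:5795713-5795772 and the Neat1 probe at chr19:5842594-5842653 show how members of known noncoding RNAs relate to the array's ordinary gene probes. Capitals mark the bases shared with the ordinary probe, which were all 60 for Malat1 and 30 for Neat1.
Malat1: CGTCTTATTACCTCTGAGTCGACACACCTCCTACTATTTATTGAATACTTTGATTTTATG
Neat1: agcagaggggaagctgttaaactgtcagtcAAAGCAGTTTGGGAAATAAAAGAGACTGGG

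The last set contrasts bright and strongly changed probes. The first probe, at chr14:78936616-78936675, was among the brightest members and held 83.3% G or C, with runs of at least 4 C in capitals. The probe at chr5:35898839-35898898 rose strongly and held 21.7% G or C. The final pair, at chr17:29379295-29379354 and chr17:29379231-29379290, lies in one region. Only the former of the 2 fell, but the latter was already close to background in the naive-only cells.
A_30_P01031448: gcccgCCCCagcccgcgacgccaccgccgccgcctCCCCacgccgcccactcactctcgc
A_30_P01033054: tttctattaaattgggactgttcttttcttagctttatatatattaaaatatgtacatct
A_30_P01024145: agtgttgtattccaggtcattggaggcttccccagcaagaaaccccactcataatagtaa
A_30_P01032454: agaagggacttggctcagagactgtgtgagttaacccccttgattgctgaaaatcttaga

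Most of the intergenic probes gave no signal above background. A probe was called well above background by the scanner software. Of the 16251 members, 4467 (27.5%) passed in the naive-only cells and 4177 (25.7%) in the co-culture. Both arrays were passed by 3676 (22.6%), which are called measured here, while 11283 passed on neither. Of the 31626 probes with a gene name, 53% were measured. A low call says only that the probe was not well above background in these cells at this signal, not that its RNA was absent.

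Signals were taken as log2 of the processed signal minus the array's 75th percentile, so that a value of 0 is as bright as that percentile. The median signal of measured members was -1.61 in the naive-only and -1.62 in the co-culture cells. For named genes it was 1.40 and 1.43. A probe's signal also depends on its sequence, so this compares signals of probe classes and not RNA amounts. Measured members fell mostly into the dim range of named genes: 63% of them lay in the range of the dimmest 25% of measured named-gene probes, and 6.31% in that of the brightest 25%.

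**Figure D1:**
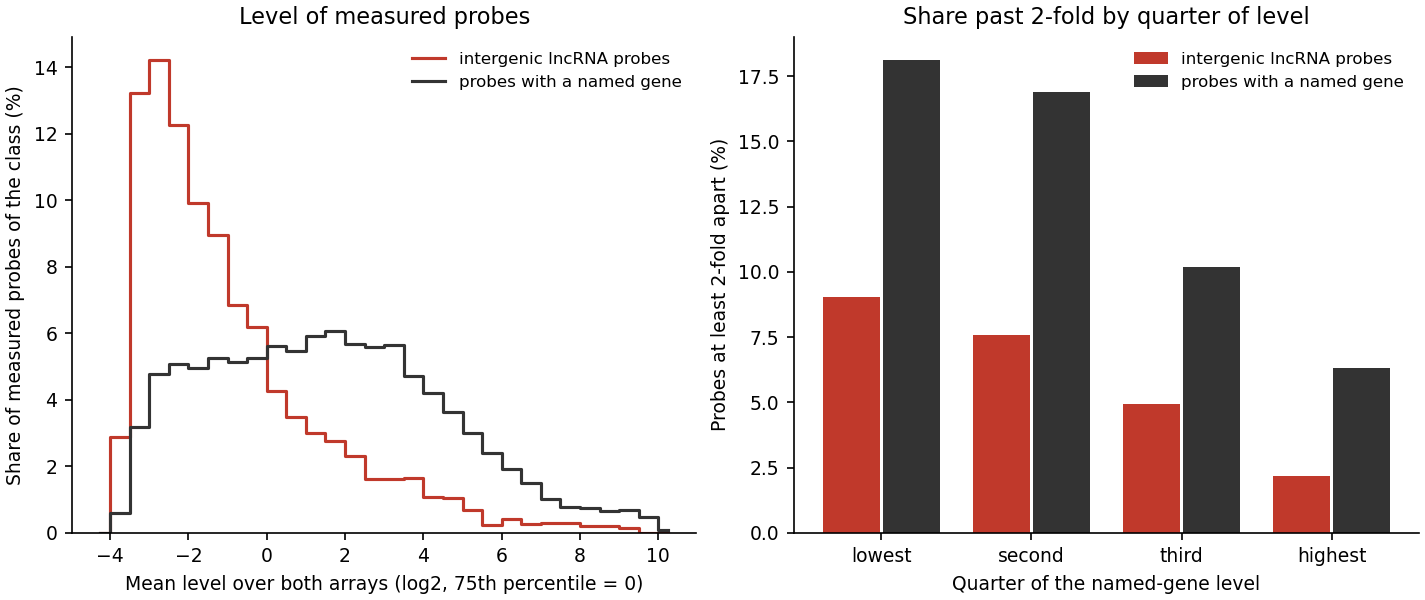
Left, distribution of the mean log2 level over both arrays (horizontal axis, 75th percentile at 0) as the share of measured intergenic and of measured named-gene probes (vertical axis, %). Right, bars give the share of each class at least 2-fold apart between the conditions in each quartile of the named-gene level, where intergenic probes go from 9.03% in the lowest to 2.16% in the highest and named genes from 18.1% to 6.32%.

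Detection was also counted by region. At least 1 measured probe was found in 2055 of the 4622 stranded regions (44.5%). Among 1067 regions probed on both strands, 347 had a measured probe on both, 219 on the forward strand alone, 240 on the reverse strand alone, and 261 on neither. Detection by chromosome ran from 16.8% of members on chromosome 9 to 29.7% on chromosome 14.

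Between the conditions, most measured members moved little. The median difference, co-culture minus naive-only, was -0.0099 on the log2 scale, with quartiles of -0.30 and 0.26. At least 2-fold higher in co-culture were 130 members (3.54%), where 6.56% of all measured noncontrol probes were. At least 2-fold lower were 161 members (4.38%), beside 5.12% of all measured probes. Which direction held more members turned with the scaling: the array median gave 152 higher and 140 lower, and the percentile over detected probes 147 and 145, while quantile scaling gave 143 and 152, and 140 and 155 were counted in the deposited table. A 4-fold difference was passed by 18 of the 3676 measured members upward and 9 downward. Of all 23496 measured noncontrol probes, 401 passed it upward and 273 downward. These shares describe 2 arrays and were not tested against each other.

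The share of changed probes was also taken at matched signal. In the dimmest 25%, 9.03% of members and 18.1% of named-gene probes passed 2-fold in either direction. In the brightest 25%, these shares were 2.16% and 6.32%. The software's error of a difference had a median of 0.226 over measured members, with a range of 0.204 to 0.447, which is below the 2-fold limit of 1. The background correction mattered more: with the normexp method, which shrinks differences of dim spots, 106 members passed 2-fold (55 higher, 51 lower), and 104 of these were among the 291.

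**Figure D2:**
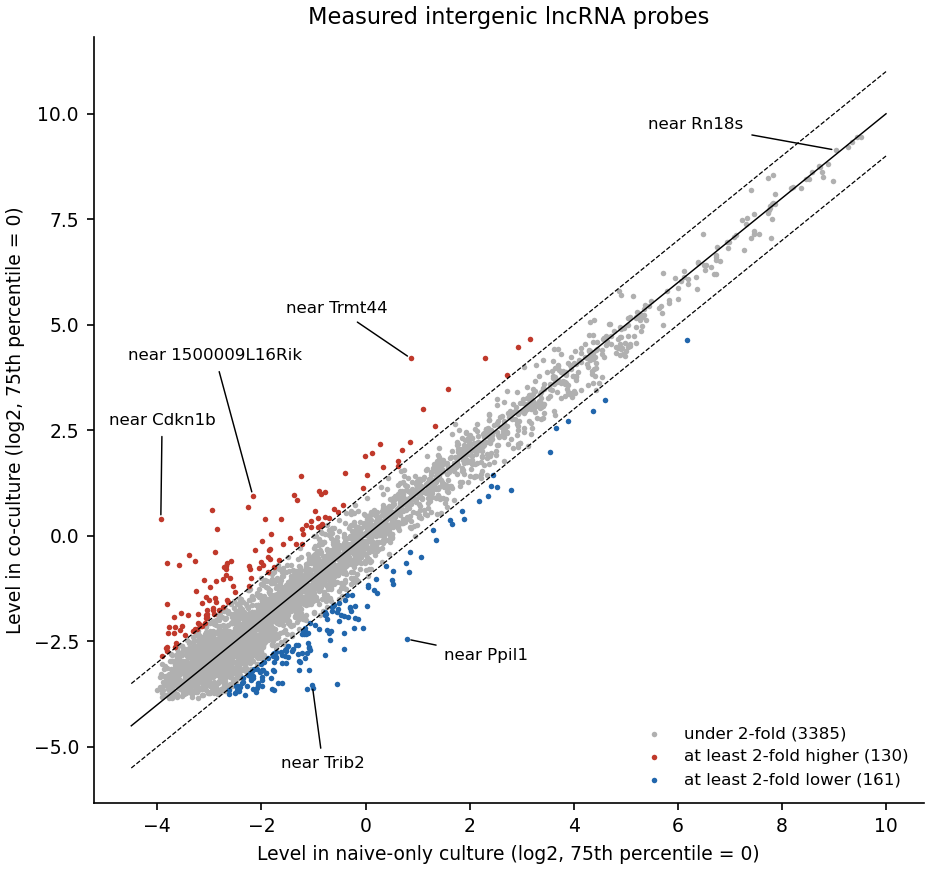
Signal of each measured intergenic probe in the naive-only cells (horizontal axis) and the co-culture (vertical axis), both on the log2 scale with the 75th percentile of each array at 0. Dashed lines are the 2-fold limits. Most of the 3676 points lie between them, and the 130 higher and 161 lower probes lie mainly at low signal.

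The largest rise was seen beside Cdkn1b. Probe A_30_P01020056 went from -3.93 in the naive-only to 0.40 in the co-culture cells, a difference of 4.33 ± 0.34 or 20.2-fold. The overlapping probe A_30_P01021179 went from -2.95 to 0.62, which is 3.57 ± 0.25 or 11.9-fold. With their 53 shared bases they read nearly the same sequence and are no independent measurements. Both naive-only values were close to the dimmest signals called above background, -4.01 on that array, and with normexp the rises were 6.11-fold and 5.43-fold.

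Genes on the same strand around this pair rose by unequal amounts. The brightest Cdkn1b probe went from 2.62 to 3.28, a difference of 0.66 ± 0.20. Lockd, a long noncoding RNA made downstream of Cdkn1b, went from -1.12 to 2.81 at a probe 22.2 kb away from the pair. That difference of 3.93 ± 0.21, or 15.2-fold, was of the size of those of the pair. The named region of A_30_P01020056, chr6:134875724-134931975, also spans the position of the Lockd probe on the same strand. Whether the pair reads Lockd RNA was not tested. Lockd was named after its value had been seen. Of the other same-strand neighbours looked at and measured on both arrays, Crebl2 (0.24 and 0.41 at its 2 probes) and Ddx47 (-0.45) stayed under 2-fold. Apold1 was above background at 1 probe in the naive-only cells (-3.41) and not in the co-culture (-4.66).

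The next largest rise was at chr5:35898839-35898898, from 0.87 to 4.20, which is 3.33 ± 0.20 or 10.1-fold. It was the only probe of its region, and it kept 8.70-fold with normexp. The nearest gene, Trmt44, a tRNA methyltransferase, lay 1.1 kb away on the other strand and went from 0.16 to -0.78. That difference of -0.94 ± 0.21 did not reach 2-fold.

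Of the 10 largest rises, 4 came from 1 region, chr10:83181374-83249774 on the forward strand. The 4 probes stood at -3.39 to -2.16 in the naive-only and at -0.45 to 0.95 in the co-culture cells, so the arrays did not overlap. Their differences were 3.11, 3.0, 2.94 and 2.94, with a mean of 3.0 and an SD over probes of 0.08. The fifth probe was not above background in the naive-only cells and reached -3.0 in the co-culture. A probe of 1500009L16Rik, an uncharacterised gene, lay within 0.48 kb of these probes on the same strand and went from not above background to -3.07. With normexp the mean rise was 3.87-fold in place of 7.99-fold.

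Other large rises were single probes in regions whose other probes moved little. At chr5:33174092-33200792, A_30_P01024966 rose by 3.16 ± 0.35 while the other 2 measured probes of that strand ranged from -0.64 to 0.04. In chr9:113650590-113670786, A_30_P01027239 rose by 2.89 ± 0.31 while the other 2 stood at -0.42 and -0.11. At chr1:135956616-135957485 the neighbours did move alike, with 2.68 and 2.49 at the 2 measured probes. Nearby Fmod, the gene of the matrix protein fibromodulin, was not above background on either array. Over the 10 largest rises the folds ran from 6.43 to 20.2, and with normexp from 2.66 to 8.70.

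The largest fall was at chr17:29379295-29379354. A_30_P01024145 went from 0.79 to -2.45, a difference of -3.24 ± 0.23, or 9.45-fold lower. The probe A_30_P01032454, a few bases upstream in the same region, went from -3.58 to -3.17, a difference of 0.41 ± 0.38. The fall was thus read at 1 probe. Its companion could hardly have shown one, since the dimmest signal called above background in co-culture was -3.90. The nearest gene, the splicing factor Ppil1, differed by 0.16.

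Next came chr8:85609155-85615170, where A_30_P01031631 went from -0.55 to -3.52, a difference of -2.96 ± 0.31. Rnf150, on the same strand 2.48 kb away, was not above background on either array. At chr4:54669012-54940960 A_30_P01028151 went from -1.01 to -3.61. It had no measured companion.

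Other large falls lay beside genes that fell as well. In chr12:15735906-15798506, A_30_P01017933 went from -1.02 to -3.54, a difference of -2.51 ± 0.33, and the other measured probe differed by -0.53. Trib2, a pseudokinase gene 1.86 kb away on the same strand, went from 3.41 to 0.74, a difference of -2.68 ± 0.20. Beside Ifi204, A_30_P01021447 went from -1.12 to -3.62 and A_30_P01017895 from -0.21 to -2.18, differences of -2.50 ± 0.34 and -1.96 ± 0.23.

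The remaining large falls differed by -2.28 near Cops8, -2.14 near Hnrnpa3, -2.10 near 1700025H01Rik and -2.05 near Slc1a3. Their nearest genes did not follow: Cops8, a signalosome subunit, differed by -0.62 and Hnrnpa3, an RNA-binding protein gene, by -0.01. The others were not above background. Over the 10 largest falls the folds ran from 3.89 to 9.45, and with normexp from 2.13 to 5.14.

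Several probes of 1 region give a check that a single spot cannot. In 864 stranded regions with at least 2 measured probes, the SD of the differences within a region had a median of 0.219, close to the software's error. The 291 members past 2-fold lay in 216 stranded regions. Of these members, 75 were the only measured probe of their region, and 5 regions held members past 2-fold in both directions. In 15 regions with 3 or more measured probes, all of them passed 2-fold. The regions in the next paragraphs were named after their values had been seen. Probes of 1 region share a target and are not replicates of a condition.

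Among 422 regions with at least 3 measured probes, 10 had a mean past 2-fold upward (2.37%) and 9 downward (2.13%). After the region beside 1500009L16Rik, the largest means belonged to chr17:34018371-34019394 and chr10:117021051-117038683. The former holds Kifc1, a kinesin motor of the mitotic spindle, and its 3 probes went from 0.27 to 1.58 in the naive-only to 2.17 to 3.49 in the co-culture cells. Their mean difference was 1.90, the same as that of the Kifc1 gene probe (1.67 to 3.57), with which 1 member shared at least 25 bases. The latter region lies 0.02 kb from a probe of Kifc5c-ps, a pseudogene of that family, and its 5 forward probes rose by a mean of 1.87 (SD 0.05). The Kifc5c-ps probe itself went from -3.29 to -3.20. Genes and pseudogenes of 1 family share sequence, so which copy these 5 probes read is uncertain.

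Near Rbpj, the DNA-binding partner of Notch, the 3 probes of chr5:54053882-54054174 rose by a mean of 1.62 (0.98 to 1.98). Rbpj on the same strand went from 3.22 to 4.62, a difference of 1.40 ± 0.20. On chromosome 12, the 4 measured probes of chr12:117623500-117643575 rose by 1.49 (SD 0.06), with no gene past 2-fold beside them. The 3 probes of chr12:110002978-110003360 rose by 1.37 while Yy1, a transcription factor gene on the other strand, differed by 0.03. With normexp these 3 regions were at 1.93-fold, 1.91-fold and 1.67-fold in the order given, all under the 2-fold limit.

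The falling regions were led by a stretch of chromosome 1. In chr1:175654606-175672031, 4 reverse-strand probes went from -0.21 to 0.53 in the naive-only to -2.18 to -1.15 in the co-culture cells, a mean of -1.73 (SD 0.17). In chr1:175705225-175717250, 5 probes fell, with a mean of -1.60 (SD 0.16). Together with the overlapping region, 11 members past 2-fold lay between positions 175655046 and 175710968, all of them lower. Their gene neighbours on the same strand were lower as well: Ifi204 went from 1.78 to -0.06 and Gm16340 from 0.16 to -1.65.

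Morrbid, a long noncoding RNA known to regulate the death gene Bcl2l11 in myeloid cells, was the nearest gene of 6 members past 2-fold. They lay in 4 regions, 0 to 75.8 kb from its probe on the same strand, and fell, with differences of -1.50 to -1.0. Morrbid itself went from -0.96 to -2.03. Within chr2:128142035-128142481 the 3 probes had a mean of -1.42, which became 1.93-fold lower with normexp. In this region 1 member, A_30_P01026716, shared at least 25 bases with the Morrbid probe, so the 2 read the same sequence.

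Smaller falls with 3 or more probes were seen beside Gm14308 (-1.42), 4632427E13Rik (-1.25), D5Ertd579e (-1.18) and Qser1 (-1.11). With normexp these 4 means were 1.79-fold, 1.60-fold, 1.95-fold and 1.58-fold lower, all under 2-fold. Of the genes beside them, D5Ertd579e (-1.22) and Qser1 (-1.33) passed 2-fold in the same direction. Gm14308 (-0.42) and 4632427E13Rik (-0.66) did not. All these genes lay on the strand of the members. The 9th falling region, chr3:87757295-87774970 near Nes, was a bright one. Of its 5 probes 4 had no mapped position, went from 2.35 to 4.37 in the naive-only to 0.95 to 2.97 in the co-culture cells, and fell, with differences of -1.40 to -1.02. One of them shared at least 25 bases with a probe of Crabp2, a retinoic acid carrier gene, which differed by -1.34. The mapped probe, at 8.37 and 8.23, differed by -0.14.

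**Figure D3:**
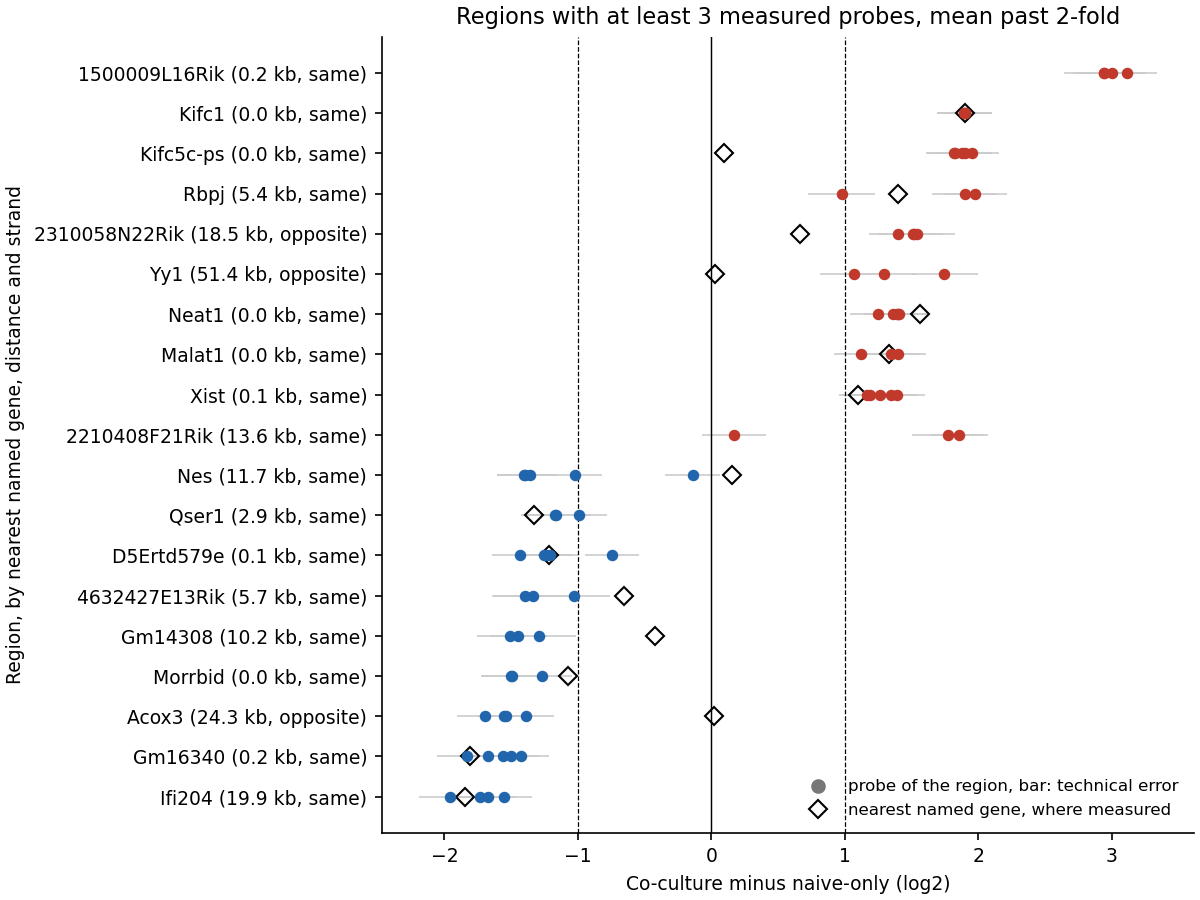
Differences of the individual probes (points, log2 co-culture minus naive-only) with their technical error (bars), in the 19 stranded regions with 3 or more measured probes and a mean past 2-fold, named by nearest gene, whose own difference is a diamond. The points of most regions cluster tightly, such as the 4 probes beside 1500009L16Rik between 2.94 and 3.11, while those beside 2210408F21Rik spread from 0.17 to 1.86.

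The probes were specific to a strand. In 351 pairs of probes on the same strand that started within 40 bases of each other, the signals correlated with r = 0.87, and both probes were measured in 110 of the 146 pairs with any measured probe (75.3%). In 2145 pairs on opposite strands at the same distance, r was 0.19 and both were measured in 156 of 829 (18.8%). The differences between conditions correlated with r = 0.81 over the 110 same-strand pairs and with r = -0.01 over the 156 opposite-strand pairs. These correlations are descriptions across probes that share arrays and, on the same strand, up to most of their bases. The amplification and labelling made cDNA, and the printed orientation of each probe was taken from the deposited annotation.

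The clearest case was the stretch at chr5:35975265-35982561, where 8 probes of alternating strand lie within 295 bases. The 4 forward probes stood at 1.80, 3.05, 1.66 and 0.62 in the naive-only and at 2.52, 4.0, 2.41 and 1.78 in the co-culture cells. Their differences were 0.71, 0.95, 0.75 and 1.16. The 4 reverse probes stood at 3.54, 2.79, 6.17 and 4.61 and then at 1.99, 1.09, 4.63 and 3.22. Their differences were -1.55, -1.70, -1.54 and -1.38. All forward probes were higher and all reverse probes were lower in co-culture, with each difference several times its software error of about 0.20. With normexp the means were 0.84 and -1.50, close to the main values of 0.89 and -1.54. Acox3, a peroxisomal acyl-CoA oxidase gene on the forward strand, differed by 0.02 at its brightest probe, 24.4 kb from the forward probe A_30_P01024606, and by -0.18 at a second probe. Its probe nearest to the stretch, 20.6 kb from that member, went from 0.10 to 1.12, a difference of 1.02, which became 1.78-fold with normexp.

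Across 105 regions with at least 2 measured probes on each strand, the strands' mean differences correlated with r = 0.13, and they lay at least 1 log2 unit apart in 8 regions. Among these, the forward strand beside 1500009L16Rik rose by 3.0 while 2 reverse probes, which lie about 40 kb away in the same region, had a mean of 0.03. Beside Kifc5c-ps the forward mean was 1.87 and the reverse mean over 3 probes was 0.15. Regions in these 8 with 2 measured probes on a strand rest on very few spots.

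**Figure D4:**
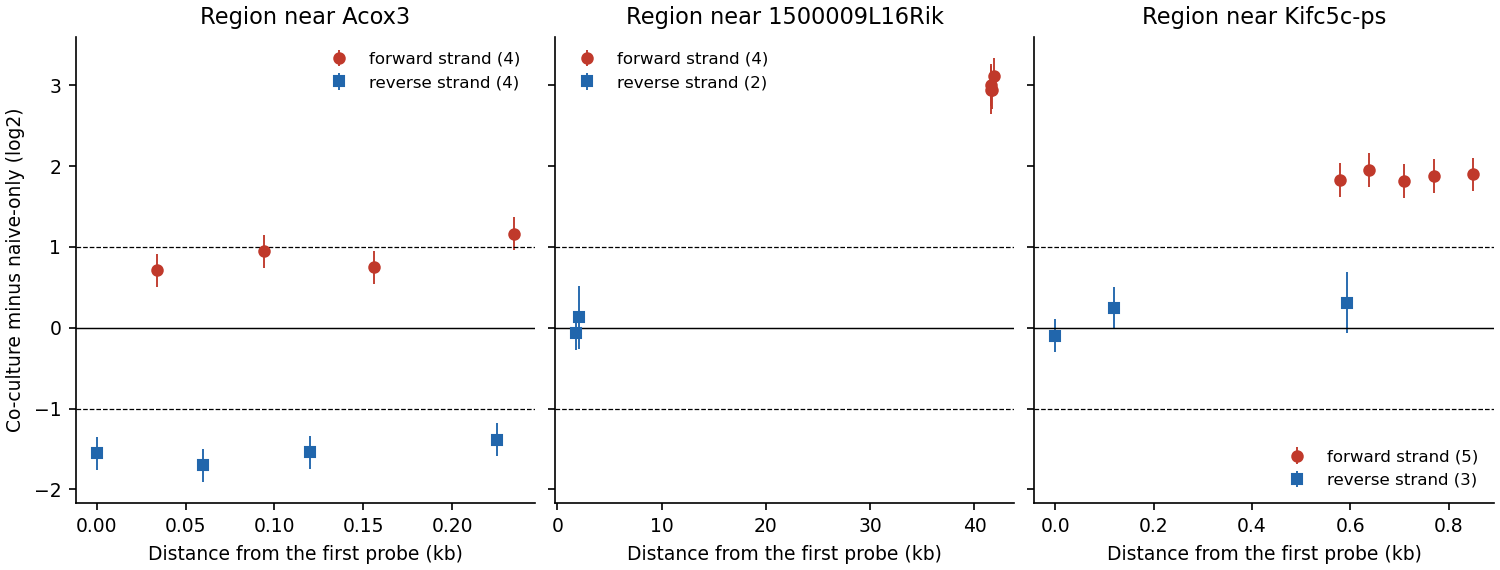
Differences (log2 co-culture minus naive-only) of forward-strand and reverse-strand probes by distance from the first probe (kb) along 3 regions probed on both strands, with bars for the technical error. In the region beside Acox3 the 4 forward probes lie above 0 and the 4 reverse probes below -1, while in the other 2 regions only the forward probes were higher.

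Each member was set beside its nearest named gene, by the distance between probes. The median distance was 22.1 kb over 16133 members with a position. The analysis used 2313 measured members whose nearest gene lay within 100 kb and was measured too. Of 59 members at least 2-fold higher with a neighbour on the same strand, 27 had a gene that was also at least 2-fold higher (45.8%) and 2 a gene that was lower. Of these 27 pairs, 14 were members of Malat1, Neat1 or Xist set beside a probe of the same RNA, and 4 others, at Kifc1 and Foxd2os, lay within 1 kb of the gene's own probe. For 1292 members under 2-fold the gene was higher in 4.88% and lower in 3.41%. Of 76 lower members on the same strand, 31 had a lower gene (40.8%) and 1 a higher gene. Without members within 1 kb of the gene's probe, which was tried after the data had been seen, 9 of 30 higher members had a higher gene (30%), 22 of 66 lower members had a lower gene (33.3%), and members under 2-fold had a higher gene in 5.46% and a lower gene in 3.82%.

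On the opposite strand the direction was not shared. Of 27 higher members, 2 had a higher gene and 1 a lower gene. Of 34 lower members, 1 had a lower gene and 4 a higher gene. Members beside 1 gene are not independent of each other: the same-strand counts rest on 79 genes, of which 21 had members that moved with them and 3 had members that moved against them. For the opposite strand these were 42 genes, 3 and 3. No test was made.

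The likeness faded with distance. On the same strand, the differences of member and gene correlated with r = 0.74 over 232 members within 1 kb, 0.38 over 311 at 1 to 5 kb, 0.18 over 418 at 5 to 20 kb, 0.31 over 295 at 20 to 50 kb and -0.01 over 171 at 50 to 100 kb. On the opposite strand the values lay between -0.08 and 0.17 in all 5 bins. Of measured members within 1 kb of a gene 13.2% passed 2-fold, and of those beyond 100 kb 6.57%. Measured were 31.1% and 16.6% of members at these distances. Points in these correlations share genes and both arrays.

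**Figure D5:**
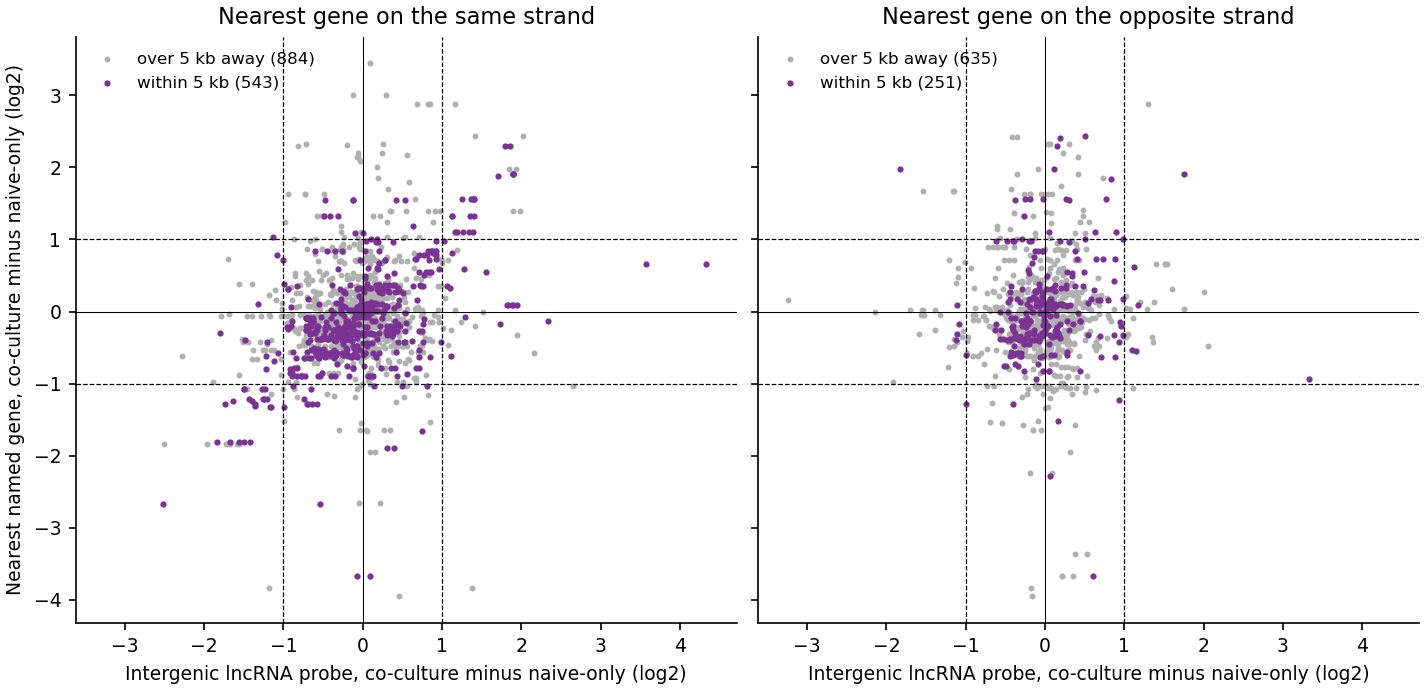
Difference of the nearest named gene (vertical axis) against that of the intergenic probe (horizontal axis), both log2 co-culture minus naive-only, 1 point per measured probe with a measured gene within 100 kb, for genes on the same strand (left) and the opposite strand (right). Probes within 5 kb are coloured and dashed lines mark 2-fold. On the same strand, points past 2-fold on both axes lie mostly where both signs agree, 27 of 29 for higher and 31 of 32 for lower probes.

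Several named neighbours illustrate the pairs that rose together, and all of them were chosen after their values were seen. Hmgb2, a chromatin protein gene that is highly expressed in dividing cells, went from 5.31 to 7.60. The 2 members 1.6 to 1.7 kb away rose by 1.79 and 1.86. Tg, the thyroglobulin gene, went from 3.8 to 6.23 and 2 members 27.9 and 28.2 kb away rose by 1.42 and 2.02. Foxd2os, itself noncoding, rose by 1.89 and the member overlapping it by 1.70. Emp1, a membrane protein gene, rose by 2.88, with 1 member on each strand 33.2 to 33.3 kb away higher by 1.16 and 1.30.

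Pairs that fell together on the same strand included Nr4a1, an early gene of T cell receptor signalling, and a bright member 11.7 kb away. Nr4a1 went from 6.89 to 5.74 and the member from 3.89 to 2.73, differences of -1.15 and -1.16. The gene 2010204K13Rik on chromosome X went from 2.32 to 1.01, and the member that overlaps its probe from 2.18 to 0.83. Exceptions existed as well. Beside 2700099C18Rik, which rose by 1.97, 2 same-strand members rose by 1.84 and 1.93 while 1 opposite-strand member differed by -1.83. Gm4392 differed by -1.04 and its same-strand member 89.8 kb away by 2.66.

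Members close to genes of T cell activation and differentiation were examined through a list of 79 genes. Within 200 kb of 35 of these lay 305 members, of which 97 were measured (31.8%). Of these, 13 were at least 2-fold lower (13.4%, beside 5.12% of all measured probes) and 2 higher (2.06%, beside 6.56%), with a median difference of 0.04. Those 15 came from few loci: 5 near Tigit, 5 near Cd69, 2 near Eomes and 1 each near Foxp3, Nr4a1 and Pdcd1. With normexp 6 of the 97 passed 2-fold.

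Near Tigit, an inhibitory receptor gene, the 5 measured members on the forward strand all fell, with differences of -1.64 to -1.15, while Tigit on the reverse strand went from -0.03 to 1.64. The brightest of them, A_30_P01021665, went from -1.06 to -2.70, a difference of -1.64 ± 0.25. On the members' own strand lay Zbtb20, a zinc finger repressor gene, which went from -0.83 to -2.06. With normexp A_30_P01021665 was 1.91-fold, A_30_P01017753 1.58-fold, A_30_P01026470 1.54-fold and Zbtb20 1.74-fold lower, all under 2-fold, while Tigit was 2.63-fold higher.

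Near Cd69, an early activation marker that went from 4.03 to 1.48, the 5 members past 2-fold lay within 1 region, chr6:129151512-129208737, on the reverse strand as Cd69 does. They stood 34.6 to 35.0 kb away and fell, with differences of -1.38 to -1.12. The gene nearest to them, 2310001H17Rik, lay 19.1 to 19.5 kb away on the same strand and differed by -0.53. A_30_P01027568 went from 1.67 to 0.29 and A_30_P01022593 from 1.85 to 0.59, differences of -1.38 ± 0.21 and -1.26 ± 0.20. With normexp these 2 probes were 2.63-fold and 2.21-fold lower. The region's 9 measured probes ranged from -1.38 to -0.11, with a mean of -0.81, which became -0.70 with normexp.

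Members near Eomes, a T-box factor gene of memory and cytotoxic cells that went from 1.47 to -2.37, split. A pair 80.3 and 80.5 kb away on the same strand differed by 1.37 and -1.18. Near Pdcd1, the PD-1 gene, which rose by 1.42, A_30_P01029373 on the opposite strand 50.3 kb away rose by 1.34 ± 0.31 from a dim -3.57, and by 1.51-fold with normexp. The Foxp3 neighbour was the 2010204K13Rik member described above, 172 kb from Foxp3, the regulatory T cell factor gene, which itself differed by -0.39.

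Other genes with large changes had no changed member beside them. Il4, a cytokine gene, rose by 5.37, and the measured members within 200 kb of Il4, Il13 or Il5 stayed between -0.25 and 0.40. Fasl, a death ligand gene, rose by 2.99 and its 10 measured neighbours ranged from -0.99 to 0.53. Bcl6, a follicular helper factor gene, differed by -3.95, and its 2 measured neighbours by -0.17 and 0.46.

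A list of 43 known long noncoding RNAs was set beside the members. Members named after a known RNA covered 12 RNAs with 57 probes, and 23 probes of 7 RNAs were measured. NRON, PINC and BRN1-A are among the 12 and were not on the list. At least 2-fold higher were 13 probes and none was lower, beside 6.56% and 5.12% of all measured probes. All 13 belonged to Malat1, Neat1 and Xist. Only 8 of the 13 stayed past 2-fold with normexp.

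Neat1 is the RNA on which nuclear paraspeckles form. Its 5 probes stood at -1.58, -1.45, -1.05, -1.05 and -1.87 in the naive-only and at -0.19, -0.05, 0.20, 0.35 and -0.51 in the co-culture cells. Every probe was brighter in co-culture, by 1.25 to 1.40, with a mean of 1.36 (SD over probes 0.06). The array's ordinary Neat1 probe differed by 1.57. With normexp the mean was 0.99.

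Malat1, an abundant nuclear RNA of splicing speckles, was read by 3 members, named NEAT2 on the array. They went from -0.92, -1.13 and -0.92 to 0.43, 0.26 and 0.20, a mean difference of 1.29 (SD 0.15). The ordinary Malat1 probe, identical in all 60 bases to the first of them, differed by 1.33, beside 1.35 for that member. Over 21 members identical to another noncontrol probe and measured, the differences of the identical probes lay a median of 0.111 apart and at most 0.555.

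Xist coats the inactive X chromosome of female cells. Its 5 members went from 1.34, 0.70, 0.04, -0.43 and -0.05 to 2.60, 2.04, 1.43, 0.74 and 1.14. The mean difference was 1.27 (SD 0.10), and 2 ordinary Xist probes had a mean of 1.23. Both samples came from female mice.

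Tug1, a widely expressed nuclear RNA, differed by -0.10 to 0.26 at its 5 members (mean 0.05), while 3 ordinary probes ranged from -1.47 to -0.02. NRON, which binds the transcription factor NFAT, differed by 0.21 (2 probes). Kcnq1ot1 is an imprinted antisense RNA. The 2 measured members that carry its name read the forward strand and had a mean of -0.29, while the ordinary Kcnq1ot1 probe reads the reverse strand and differed by -1.63, so these values are not of 1 transcript strand. Hotair had 1 measured probe of 5, at 0.60. The members of H19, BRN1-A, PINC, Trp53cor1 and Tsix were measured at no probe. H19 members A_30_P01025068 and A_30_P01026972 were above background in co-culture alone, at -2.39 and -2.37. So were BRN1-A member A_30_P01032812 (-3.12) and ordinary probes of H19 (-2.42) and Jpx (-1.78). The other H19 probes were above background on neither array. Above background in the naive-only cells alone were an ordinary probe of Airn (-2.49) and one of Kcnq1ot1 (-2.86).

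Known noncoding RNAs outside the members included hosts of small nucleolar RNAs. Gas5 had a mean of 1.03 over 3 probes (0.65, 0.88 and 1.54) and Snhg6 differed by 1.07, both just past 2-fold. With normexp Gas5 was 1.99-fold and Snhg6 2.11-fold higher. Under 2-fold were Snhg5 (0.99), Snhg12 (0.97), Dancr (0.84), Snhg1 (0.62) and Snhg3 (-0.36). Norad, which binds Pumilio proteins, had a mean of -0.42 over 4 probes, and Pvt1, the neighbour of Myc, a mean of 0.56 over 2. Airn had a mean of -0.44 over 2 probes, while Dleu2 (0.51), Mir22hg (0.47) and Mir17hg (0.27) had 1 measured probe each. Peg13, an imprinted RNA, differed by -1.09, which became 1.97-fold lower with normexp.

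Members above background on only 1 array have a bound and no measured fold. The bound sets the bright signal against the dimmest signal called above background on the other array, -4.01 in the naive-only and -3.90 in the co-culture cells, or against the probe's own signal where that was higher. Of 791 members above background only in the naive-only cells, 264 had a bound of at least 2-fold. Of 501 above background only in co-culture, 250 did. Over all 55681 noncontrol probes, 2246 were above background only in the naive-only cells and 1634 only in co-culture. Among the 31626 named-gene probes these counts were 1080 and 930. Bounds were counted for members only, so no share over all probes stands beside them.

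The largest bound belonged to A_30_P01031923 in chr1:57410074-57426723, which was at 0.78 in the naive-only cells and not well above background in co-culture, at least 25.6-fold lower. The 1 measured companion of that region differed by -0.04. The next were chr10:8606683-8665783 (at least 10.6-fold lower) and chr14:27176652-27227602 and chr2:167388900-167402475 (at least 10.2-fold lower each). In the other direction, A_30_P01022501 in chr8:119732348-119749198 reached -0.27 in co-culture, at least 13.4-fold higher, while its region's 2 measured probes differed by -0.10 and 0.19. In chr11:33414450-33450750 the bound was at least 12.9-fold higher, and in chr13:99465424-99465644 at least 11.2-fold.

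The brightest members differed little between conditions. The 8 with the highest mean signal reached 8.70 to 9.53 in the naive-only cells and differed by -0.09 to 0.10. A probe in chr11:22681800-22707775 (9.53 and 9.46) shared at least 25 bases with a probe of Rps16, and 1 in chr7:108209996-108216032 (9.26 and 9.21) with a probe of Rps29. Both are ribosomal protein genes located elsewhere, so these probes can read their messages or processed copies. The probe in chr17:39982023-39983277 (9.04 and 9.14) lay 1.78 kb from the 18S ribosomal RNA gene Rn18s, whose own probe stood at 9.97 and 10.07.

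Of the 8, 4 held at least 75% G or C: 83.3% on chromosome 14, 78.3% on chromosomes 12 and 6, and 75% on chromosome 17. The chr14 probe stood at 8.89 and 8.80. The other measured probe of that region stood at -1.61 and -1.30, so the brightness was not shared within the region.

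Detection varied with base composition. Measured were 11% of members with under 30% G or C, 19.6% at 40 to 50%, 56.9% at 60 to 70% and 73.3% at 70% or more. For named genes the same bins gave 44.3%, 52%, 69.7% and 78%. The share of measured members past 2-fold went the other way, from 14.3% (4 of 28) below 30% to 0.826% (1 of 121) at 70% or more. Among measured named-gene probes it showed no steady fall. Their share was 12.8% below 30%, 14% at 40 to 50%, 23.2% at 60 to 70% and 7.69% (3 of 39) at 70% or more. What part of the signal of the probes richest in G and C came from their regions was not tested.

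Short motifs in the probe sequences were counted as letters on the printed strand. AATAAA, the polyadenylation signal, stood in 3.92% of members, in 10.1% of all noncontrol probes and in 13.3% of named-gene probes. Its reverse complement TTTATT stood in 3.03% of members. CCCCCC stood in 0.462% of members, and 66.7% of those 75 were measured. GGGGGG stood in 0.492%, and 50% of those 80 were measured.

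Some members share sequence with a gene's probe. At least 25 bases in common with a named-gene probe were found for 141 members (0.868%), of which 53.2% were measured, beside 22.4% of the others. Over 71 measured pairs the differences of member and gene probe correlated with r = 0.97. Such members read the same sequence as the gene's probe, and 11 of them passed 2-fold. Another 118 members had no mapped position, of which 27.1% were measured.

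Along the chromosomes, changed members gathered in short runs. With members past 2-fold joined when at most 100 kb apart, 286 with a position formed 177 groups, of which 131 held 1 probe. Of 46 groups with several probes, 37 moved in 1 direction and 9 were mixed. The largest were the 11 falling probes beside Ifi204 and Gm16340 and 9 rising probes of Malat1 and Neat1 on chromosome 19. Probes of a group mostly share a region, so the 177 groups count more nearly what changed than the 291 probes.

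The balance of directions differed between chromosomes in these 2 arrays. Chromosome 1 had 6 higher and 24 lower members, 11 of the 24 being the run beside Ifi204 and Gm16340. Chromosome 2 had 9 and 22. Of those 22, 6 lay at or near Morrbid, 4 beside Gm14439, 3 beside Gm14308 and 3 beside OTTMUSG00000016609. Chromosome X had 9 and 1, 5 of the 9 being Xist, and chromosome 10 had 12 and 3, 9 of the 12 being the regions beside 1500009L16Rik and Kifc5c-ps. Chromosome 19 had the highest share past 2-fold, 18.3% of 93 measured members, and 9 of its 12 higher members were probes of Malat1 and Neat1. Measured named-gene probes, higher and lower, numbered 51 and 62 on chromosome 1 and 119 and 60 on chromosome 2. On chromosome X they numbered 36 and 24, on chromosome 10 81 and 28, and on chromosome 19 44 and 34. The lean of the members was thus shared by named genes on chromosomes 1, 10, 19 and X, and not on chromosome 2.

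Markers of other cells were read on the same arrays. The 6 CD4 T cell markers had a median difference of 0.36, and their summed linear signal went from 696 to 744 times the 75th percentile. Of 9 B cell markers, 7 were measured and all 7 were at least 2-fold lower, with a median of -1.73 and a summed signal of 35.2 and 8.30. Dendritic cell markers summed to 164 and 151, with a median of -0.66 and 1 of 4 measured markers at least 2-fold lower. Macrophage and monocyte markers summed to 15.7 and 16.3, with a median of -0.25 and 2 of 6 at least 2-fold lower. Granulocyte markers summed to 14.4 and 16, with a median of 0.18. Of 4 natural killer cell markers, which summed to 2.05 and 0.962, 1 was measured and differed by -1.50. CD8 markers summed to 0.770 and 0.641. Xcr1 and Klrb1c were above background on neither array. In bulk RNA, fewer cells of a type and less RNA per cell cannot be told apart. The B cell markers moved in the direction of the falling members, and their part in the members' changes was not tested.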

How the data were processed

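Total RNA of each sample was amplified to cDNA and labelled with Cy3, per the labels' protocols, and read on a 1-colour Agilent array. The authors deposited scanner files with the processed intensity of 62976 spots and flags (other values) such as well above background, made with Agilent Feature Extraction 10.7.1.1 per the file headers and 9.5.1.1 per the submitters' processing notes. The authors also deposited a table of normalized intensities, whose log2 was used as an alternative. The software had background-subtracted the intensity. Signals of repeated spots were averaged on the log2 scale (Python 3.11.15, numpy 2.4.6, pandas 2.3.3, figures with matplotlib 3.10.9), and each array's 75th percentile over 55681 noncontrol probes was subtracted. Measured means well above background on both arrays. Normexp used limma 3.58.1 in R 4.3.3, with an offset of 50. Quantile scaling, other filters and other thresholds were also tried. The steps were tested on simulated data.

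Positions are mm9, from the scanner files. Gene names follow RefSeq GRCm38.p6, used for names only (26603 of 31626 named-gene probes matched). Sequences are the probe sequences in the deposited files.

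With 1 array a group there was no test, and the precision is limited by the number of arrays. Named members were the 10 largest differences each way, the 8 brightest, the 5 largest bounds each way and up to 8 past 2-fold near T cell genes, plus all measured known noncoding RNAs. Bounds on chromosome 18 were left out of the text. Members and lists were chosen with earlier results of these data known.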

Additional observations from a re-analysis of the deposited data

How the results depend on the processing

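No paired analysis was possible because each condition had 1 array, and for the same reason no array could be left out. Array-median, detected-probe, quantile and deposited-table scalings and leaving out spots marked as outliers gave 290 to 295 members past 2-fold, beside 291. Of the 291, 270 to 290 stayed past 2-fold in these settings and none turned sign.

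The background correction and the filter moved the counts. With normexp, 106 members passed 2-fold, 6 near T cell genes and 8 probes of known noncoding RNAs. With members above background on either array these were 1164 and 35. Without a filter they were 2367, 62 and 22, and with a mean level at or above the median of measured probes 32, 5 and 2. One value per locus gave 89 changed loci, a 1.5-fold threshold 798 members and a 4-fold threshold 27. A positive-and-significant call detected 41.8% of members and 1 call per locus 49.9% of loci, beside 22.6%.

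Of changed members with a measured neighbour, 31.1% had a gene past 2-fold in the same direction (Wilson 95% interval 25.1 to 37.9, counting error only), and 43% on the same strand. These shares became 41.8% and 51.6% with normexp, 19.8% and 26.8% above background on either array, 12.8% and 15.6% without a filter, 46.2% and 71.4% at the higher mean level, and 22.2% and 32.3% without members within 1 kb of the gene's probe, an alternative chosen after seeing the data. The cause of these shifts was not tested. Of the 36 measured members named by rule or near T cell genes, 23 had a fold over 1.5 times smaller with normexp. Signal close to background limits most members.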

Other observations

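In all, 28 groups held at least 3 members past 2-fold, each at most 100 kb from the next, and some not described above lay on chromosomes 2, 6 and 7. Beside Gm14439, 4 members were lower, with differences of -1.56 to -1.33, and beside OTTMUSG00000016609 the differences of 3 members were -1.60 to -1.32. Beside Trim30c on chromosome 7, 3 members were lower, with differences of -1.72 to -1.25. Near Gm9835 on chromosome 6, 4 members were higher by 1.23 to 1.61. Families such as Trim30 have closely related copies, and a probe may read more than 1 of them.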
